A study of Mus musculus with 6 samples.

Results

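The transcripts described here encode mitochondrial enzymes that break down fatty acids, synthetases that join fatty acids to coenzyme A, and enzymes of ketone bodies. Not all of these enzymes are mitochondrial: Acsl3 is an isoform of the endoplasmic reticulum and lipid droplets, and Bdh2 is cytosolic. Members were taken from a named list of 32 genes, with 1 probe set for each gene (that of highest mean over all 6 arrays among probe sets that carry a single gene symbol). Of these, 31 were measured, among 18193 genes in all, and Acsl1 was not analysed here. The mice were males aged 10 weeks, and whole-liver RNA was hybridised to 6 arrays: 3 of wild-type mice (WT) and 3 of mice with the genotype label L Pex5 -/- and a liver knockout of Pex5 (KO), given as biological replicates. Pex5 is the receptor that brings newly made enzymes into the peroxisome matrix. Both groups carry the same background label, mixed with Alb-Cre Tac:[Sw]fBR, and Alb-Cre is a recombinase driven by the promoter of albumin, a hepatocyte gene, so other liver cells should keep Pex5.

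Fatty acids are first joined to coenzyme A by acyl-CoA synthetases and enter the mitochondrial matrix as carnitine esters. There they are shortened in turns of 4 reactions: an acyl-CoA dehydrogenase, a hydratase, a hydroxyacyl-CoA dehydrogenase and a thiolase, with auxiliary enzymes for double bonds and a flavoprotein relay that carries the electrons to the respiratory chain. In the fasted liver much of the acetyl-CoA formed is turned into the ketone bodies acetoacetate and beta-hydroxybutyrate, which hepatocytes export and hardly use themselves.

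In KO livers the transcripts of the trifunctional protein (Hadha, Hadhb) and of the auxiliary enzymes (Eci1, Eci2, Decr1) were higher. So were those of 3 of 8 acyl-CoA dehydrogenases (Acadvl, Acadl, Acadm) and of the synthetases Acsl3 and Acsl4. Bdh2, Acsm5, Acadsb and Acsm1 were lower. The short-chain steps and the relay flavoproteins did not pass the test, and neither did the ketone enzymes other than Bdh2. In counts, 10 of 31 members were higher and 4 lower (32.3% and 12.9%), and 17 did not pass (limma, adjusted p under 0.05 over all 18193 genes). Over all genes tested 14.2% were higher and 9.75% lower, and over the 12042 genes above background, as every member was, 21.8% and 13%. The share of members that were lower therefore lay at the level of all genes above background. The median difference, KO minus WT on the log2 scale, was 0.13 over the members and -0.055 over all genes. All 3 KO arrays lay above all 3 WT arrays for 15 members, against 22.1% of all genes, and below them for 6 members, against 22.6%. Past a 2-fold change as well, 5 members were higher (3.02% of all genes) and 1 lower (1.8%).

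**Figure D1:**
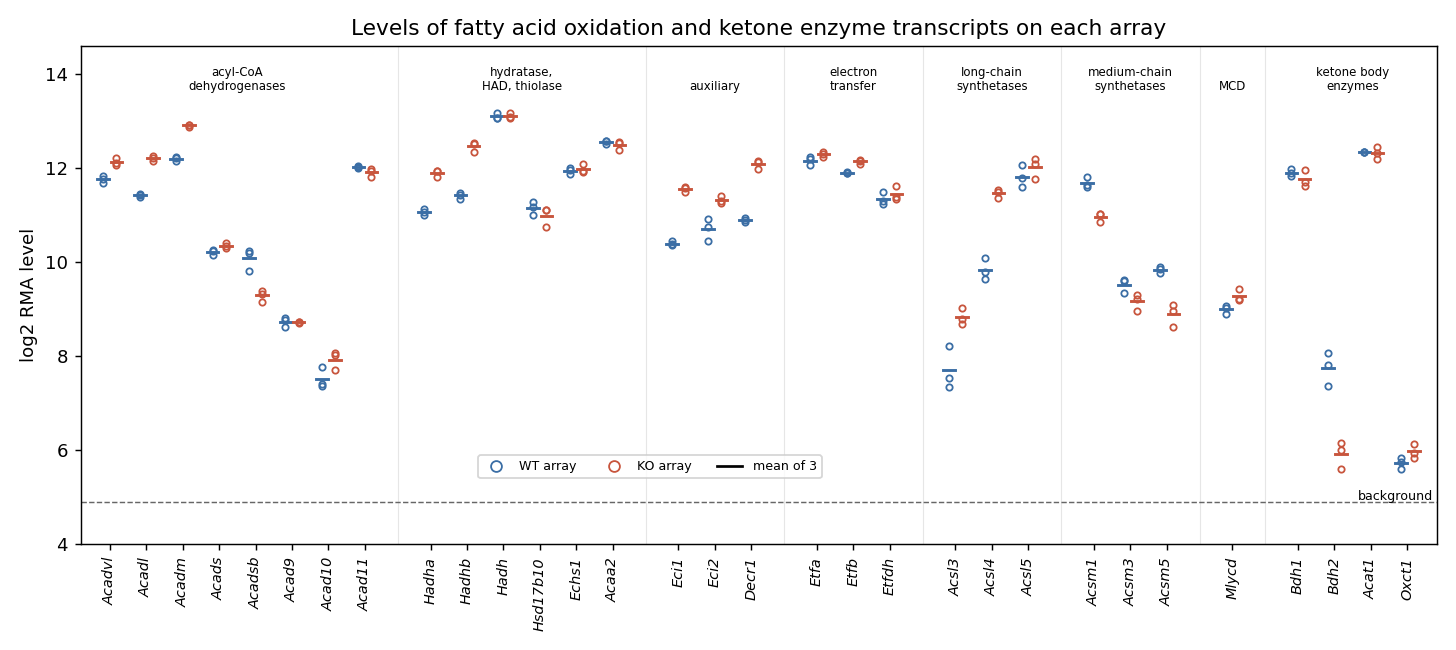
Log2 RMA level of each measured member on the 3 WT (blue) and 3 KO (red) arrays, grouped by role (HAD, hydroxyacyl-CoA dehydrogenase; MCD, malonyl-CoA decarboxylase). Short lines are means of 3 arrays and the dashed line is the background of 4.90. Decr1 rises from a WT mean of 10.90 to 12.09 in KO, Bdh2 falls from 7.75 to 5.92, and Hadh stays at 13.10 and 13.11.

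The levels are relative. Added controls, measured by 45 probe sets, were dimmer on the KO arrays (9.29, 9.31 and 9.23) than on the WT arrays (9.73, 9.67 and 9.75). The difference was -0.44, and the exact two-sided permutation test gave p = 0.10, the smallest that 3 against 3 arrays allow. These pool hybridisation controls (18 probe sets, difference -0.35) and labelling controls (27 probe sets, difference -0.50, 3 of them below background). Centring the arrays on the pooled controls adds 0.44 to every difference. Then 25 members were higher and 2 lower, among 11086 higher and 475 lower of all genes. Directions are given as deposited, relative to the bulk of the genes. The calls of Acadsb and Acsm1 are lost with the controls as reference, and the differences of Acad9, Acad11, Hsd17b10, Acaa2, Acsm3, Bdh1 and Acat1, none of them past the threshold as deposited, turn from below to above 0. Of these 7, 5 then pass as higher: Acad9 (adjusted p = 0.00732), Acad11 (0.0226), Acaa2 (0.00717), Bdh1 (0.0412) and Acat1 (0.00686). Pex5 itself differed by 0.18 ± 0.11 (SE, adjusted p = 0.262), and the sources do not say whether its probe set covers the deleted part, so it does not check the labels. Arrays of one group correlated at 0.989 or more over all genes and arrays of different groups at 0.976 or less. Hepatocyte markers were far above background (Alb 14.56 ± 0.03 in WT against 14.71 ± 0.01 for KO arrays, SD, n = 3), and 1 of 6 measured ones passed, as lower. Of the measured markers of macrophages 0 of 10 passed (mean level over the list 8.07 to 9.23 in WT and 8.48 to 8.90 in KO), of lymphocytes 0 of 7, of neutrophils 0 of 5, of adipocytes 0 of 3 and of striated muscle 0 of 6. Endothelial markers were higher in 1 of 8 and lower in 3 of 8 (mean level 7.32 to 7.57 in WT and 7.35 to 7.49 in KO). The 1 higher was Lyve1 (2.06), under background on all 3 WT arrays. Lyve1 lifts the KO mean of the list, in which 7 of 8 differences were negative, with a median of -0.26. Stellate and fibroblast markers were lower in 2 of 8 and cholangiocyte markers lower in 1 of 5. Of all genes, 14.2% were higher and 9.75% lower. Several markers of the last groups, such as Krt7, Cftr, Mpo, Adipoq and Myh7, were under background on every array. In whole tissue, fewer cells of a type and less RNA per cell cannot be told apart.

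Acyl-CoA dehydrogenases take the first hydrogens from the fatty acid, each over its own range of chain lengths. Of the 8 measured, Acadvl, Acadl and Acadm rose, Acadsb fell and 4 did not pass, beside 21.8% higher and 13% lower of genes above background. Acadl, the long-chain enzyme, stood at 11.39, 11.43 and 11.45 on the WT arrays and at 12.25, 12.22 and 12.15 on the KO arrays, a 1.72-fold rise (0.78 ± 0.08, SE, adjusted p = 0.0006). Acadm, the medium-chain enzyme whose loss causes the commonest inherited defect of this pathway, went from 12.23, 12.22 and 12.15 to 12.93, 12.88 and 12.92 (1.63-fold, 0.71 ± 0.08, adjusted p = 0.000915). Neither gene's groups came within 0.5 of each other. Acadvl, which acts on very long chains at the inner membrane, was at 11.76, 11.84 and 11.69 in WT and at 12.22, 12.12 and 12.08 in KO. Its rise was smaller, 1.30-fold (0.37 ± 0.09, adjusted p = 0.0215), and leaving out KO replicate 1 (adjusted p = 0.0919) or KO replicate 2 (0.0678) ended the call.

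Acads, the short-chain enzyme, differed by 0.13 ± 0.09 (adjusted p = 0.326), with a 95% confidence interval of -0.077 to 0.33. Its 3 KO arrays (10.41, 10.30 and 10.34) still lay above its 3 WT arrays (10.25, 10.15 and 10.27), by a gap of hundredths. Acads passed as higher with the arrays centred on the controls (0.57, adjusted p = 0.0012). Acadsb, which handles the branched acyl-CoA made from isoleucine, was the one dehydrogenase to fall, from 10.20, 10.23 and 9.82 to 9.33, 9.15 and 9.39 (1.73-fold, -0.79 ± 0.13, adjusted p = 0.00482). With the arrays centred on the controls its difference was -0.35 (adjusted p = 0.0717). The probe set is of a kind, marked x, whose probes may also match other transcripts.

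The remaining 3 dehydrogenases did not pass. Acad9, better known as an assembly factor of respiratory complex I, differed by -0.01 ± 0.09, with an interval of -0.22 to 0.20. Acad10 differed by 0.41 ± 0.15 (adjusted p = 0.078), with WT replicate 3 at 7.78, above KO replicate 2 at 7.70, and it passed without WT replicate 3 (0.55, adjusted p = 0.025). Acad11 differed by -0.11 ± 0.09 (adjusted p = 0.389).

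Promoter windows of 300 bases (250 before the start and 50 after, RefSeq, GRCm38.p6) were available for 27 of the 31 members, in 28 windows, and not for Acad9, Acaa2, Decr1 and Acat1. They were searched on both strands for AGGTCA, the half-site of many nuclear receptors and for DR1, the direct repeat of AGGTCA with any 1 base between the copies, which PPARalpha binds together with RXR and which contains the half-site. No member window held the repeat, which occurs in 13 of all 32851 windows (0.0396%). AGGTCA alone occurs in 5340 of them (16.3%) and in those of 4 members, Acadm, Acadvl, Acsm1 and Echs1. The matches of the 3 members among them that passed the test, 2 of which rose (Acadm and Acadvl) and 1 of which fell (Acsm1), are shown on the gene's own strand with the match in capitals (TGACCT is AGGTCA on the other strand), at chr3:153944864-153944893 on the minus strand, chr11:70015498-70015527 on the minus strand and chr7:119617693-119617722 on the plus strand:
Acadm: gTGACCTtcgggctccggtgacactgggca
Acadvl: atggatcaccctAGGTCAggtagaatacag
Acsm1: tgcactgttttcTGACCTcttgactaaacg
The match lay at the far edge of the window of Acadm, 87 bases before the start of Acadvl and 107 before that of Acsm1. Genes on both sides of the comparison thus hold the same letters, and nothing about binding follows from them.

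The next 3 steps are carried out on long chains by the trifunctional protein, whose alpha subunit is encoded by Hadha and whose thiolase subunit by Hadhb, and on shorter chains by separate matrix enzymes. Both subunits of the trifunctional protein rose. Hadhb went from 11.35, 11.47 and 11.43 in WT to 12.54, 12.51 and 12.35 in KO (2.06-fold, 1.05 ± 0.09, adjusted p = 0.000247), and Hadha from 11.13, 11.06 and 11.00 to 11.93, 11.95 and 11.82 (1.79-fold, 0.84 ± 0.09, adjusted p = 0.000572). A second Hadhb probe set rose by 0.88 ± 0.20, and another, dim one differed by 0.47 ± 0.19 without passing.

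The enzymes for shorter chains did not pass, and the ends of their 95% intervals lay between -0.46 and 0.25. Hadh, the short-chain hydroxyacyl-CoA dehydrogenase, differed by 0.01 ± 0.09 (95% interval -0.20 to 0.21, adjusted p = 0.957), with WT arrays at 13.07, 13.07 and 13.17 and KO arrays at 13.18, 13.09 and 13.06. Echs1, the short-chain hydratase, differed by 0.04 ± 0.09 (interval -0.18 to 0.25). Acaa2, the matrix thiolase, differed by -0.06 ± 0.09 (interval -0.27 to 0.15), and its other probe sets by -0.19 and -0.024. Hsd17b10, a dehydrogenase of isoleucine and steroid breakdown that is also part of mitochondrial RNase P, differed by -0.17 ± 0.13 (interval -0.46 to 0.13). With the arrays centred on the controls, Hadh (0.45, adjusted p = 0.00333), Echs1 (0.48, 0.00284) and Acaa2 (0.38, 0.00717) passed as higher. Hsd17b10 did not (0.27, adjusted p = 0.0619).

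Hadha and Hadhb lie head to head on chromosome 5, with RefSeq start sites at 30154980 and 30155253, 273 bases apart, and transcribed away from each other. Their promoter windows share 228 bases, shown in capitals within the Hadhb window (chr5:30155003-30155302, plus strand), since it lies between the start sites of 2 members that rose:
Hadhb: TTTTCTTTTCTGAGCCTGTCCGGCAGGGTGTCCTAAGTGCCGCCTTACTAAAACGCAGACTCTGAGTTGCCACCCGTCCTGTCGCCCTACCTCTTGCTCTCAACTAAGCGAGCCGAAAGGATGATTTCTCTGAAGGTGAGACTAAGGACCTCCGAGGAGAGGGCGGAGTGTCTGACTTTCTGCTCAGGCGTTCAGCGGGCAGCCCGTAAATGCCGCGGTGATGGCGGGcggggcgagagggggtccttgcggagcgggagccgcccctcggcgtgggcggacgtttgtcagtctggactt
The window is 60.7% G or C and holds 24 CG dinucleotides and no AGGTCA. On each array the log2 ratio of Hadhb to Hadha, in which any shift of the whole array cancels, moved by 0.21 (from 0.23, 0.41 and 0.43 in WT to 0.60, 0.56 and 0.54 in KO). With the second Hadhb probe set in place of the brightest, the rises of Hadhb (0.88) and Hadha (0.84) were nearer each other.

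Unsaturated fatty acids need auxiliary enzymes, and all 3 of those measured rose, beside 21.8% of genes above background. Decr1, the dienoyl-CoA reductase, went from 10.89, 10.93 and 10.86 to 12.13, 12.16 and 11.97 (2.28-fold, 1.19 ± 0.09, adjusted p = 0.000111), and its dimmer probe set rose by 0.91 ± 0.13. Eci1, the mitochondrial enoyl-CoA isomerase that moves double bonds, went from 10.39, 10.44 and 10.36 to 11.60, 11.58 and 11.50 (2.24-fold, 1.16 ± 0.09, adjusted p = 8.86e-05). In both genes the lowest KO array was more than 1 log2 unit above the highest WT array. Eci2, an isomerase found in mitochondria and peroxisomes, went from 10.46, 10.91 and 10.74 to 11.30, 11.41 and 11.26 (1.53-fold, 0.62 ± 0.13, adjusted p = 0.0112). The spread of its WT arrays was wider, and leaving out KO replicate 2 ended the call (adjusted p = 0.052).

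Electrons from all acyl-CoA dehydrogenases pass through the flavoprotein ETF, made of Etfa and Etfb, to the ETF dehydrogenase Etfdh, which hands them to ubiquinone. None of the 3 passed. Etfb stood at 11.91, 11.91 and 11.90 in WT and at 12.17, 12.16 and 12.10 in KO, a difference of 0.23 ± 0.08 (adjusted p = 0.0743). Its groups were apart, and it passed with the arrays centred on their medians (adjusted p = 0.0468) or with trend and robust eBayes (0.0201). With the arrays centred on the controls all 3 relay genes passed as higher, Etfb by 0.67 (adjusted p = 0.00047), Etfa by 0.57 (0.00175) and Etfdh by 0.55 (0.00477). Etfa, at 12.19, 12.23 and 12.07 in WT and 12.35, 12.30 and 12.23 in KO, differed by 0.13 ± 0.09, and Etfdh, at 11.49, 11.31 and 11.24 against 11.62, 11.35 and 11.39, by 0.10 ± 0.11. The upper ends of the 3 intervals were 0.42 for Etfb, 0.34 for Etfa and 0.37 for Etfdh, below the differences measured for Acadl, Acadm, Hadha, Hadhb, Eci1, Eci2 and Decr1, but that of Etfb lay above the 0.37 of Acadvl. The intervals of Eci2 (0.32 to 0.91) and Acadvl (0.16 to 0.59) overlapped all 3, and the genes were not tested against each other.

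**Figure D2:**
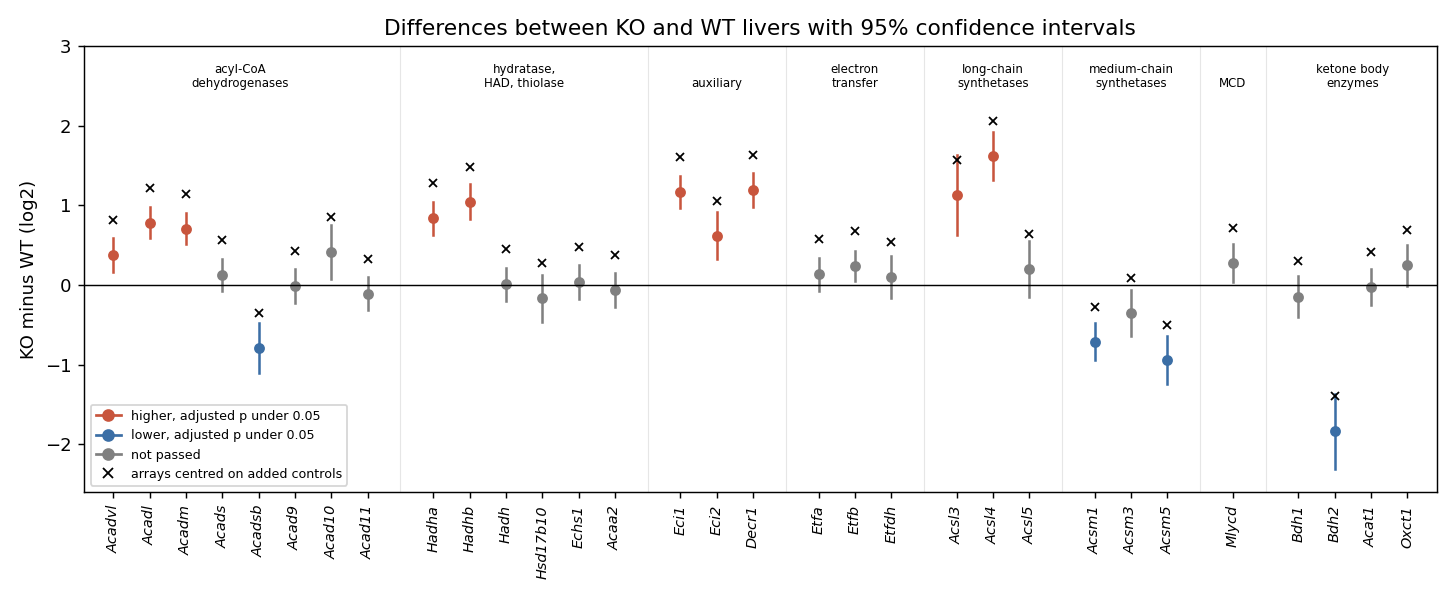
Difference between KO and WT means of each member (log2) with its 95% confidence interval from limma, coloured by whether it passed the test. Crosses give the same difference with the arrays centred on the added controls, which lies 0.44 higher. The largest rise is that of Acsl4 (1.62) and the largest fall that of Bdh2 (-1.83).

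Long-chain acyl-CoA synthetases activate fatty acids for oxidation or for lipid synthesis, depending on the isoform and its place in the cell. Acsl4, which prefers arachidonic acid, showed the largest rise of all members, from 9.64, 10.09 and 9.80 to 11.36, 11.50 and 11.53 (3.07-fold, 1.62 ± 0.13, adjusted p = 0.000137). All 3 of its probe sets passed as higher, by 1.62 to 2.03. Acsl3, an isoform of the endoplasmic reticulum and lipid droplets, went from 8.22, 7.54 and 7.34 to 9.03, 8.78 and 8.68 (2.19-fold, 1.13 ± 0.22, adjusted p = 0.00837). WT replicate 1 lay apart from the other WT arrays, and all 3 Acsl3 probe sets passed as higher, by 0.47 to 1.93, the smallest of these being under background on average. Acsl5, found on mitochondria and the endoplasmic reticulum, stood at 12.06, 11.60 and 11.78 in WT and at 12.20, 12.09 and 11.77 in KO, so that its groups overlapped (0.20 ± 0.15, adjusted p = 0.363, interval -0.15 to 0.56). On the same array, the log2 ratio of Acsl4 to Acsl5 moved by 1.42, from a WT range of -2.43 to -1.51 to a KO range of -0.84 to -0.25. The promoter window of Acsl4, the member with the largest rise (chrX:142390486-142390785, minus strand), held no AGGTCA and was 71.7% G or C:
Acsl4: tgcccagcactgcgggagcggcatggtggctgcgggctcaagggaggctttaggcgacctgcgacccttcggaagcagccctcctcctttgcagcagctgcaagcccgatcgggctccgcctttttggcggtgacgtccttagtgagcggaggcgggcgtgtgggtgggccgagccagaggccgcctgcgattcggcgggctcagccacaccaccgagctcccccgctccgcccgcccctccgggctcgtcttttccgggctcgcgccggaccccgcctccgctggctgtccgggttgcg

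Medium-chain acyl-CoA synthetases sit in the mitochondrial matrix and activate medium-chain fatty acids and aromatic acids such as benzoate. Of the 3 measured, 2 fell and none rose, beside 13% lower and 21.8% higher of genes above background. Acsm5 fell from 9.85, 9.89 and 9.77 to 8.96, 8.62 and 9.10 (1.92-fold, -0.94 ± 0.13, adjusted p = 0.00202), and Acsm1 from 11.63, 11.81 and 11.60 to 11.02, 10.86 and 11.03 (1.64-fold, -0.71 ± 0.10, adjusted p = 0.00216). With the arrays centred on the controls, Acsm5 still passed as lower (-0.50, adjusted p = 0.0184) and Acsm1 did not (-0.27, adjusted p = 0.072). Acsm3 stood at 9.33, 9.62 and 9.60 in WT and at 9.30, 9.23 and 8.97 in KO, 1 KO array lying close to the lowest WT array, and missed the threshold (-0.35 ± 0.13, adjusted p = 0.0773). Quantile normalization (-0.44, adjusted p = 0.0423) and leaving out WT replicate 1 (-0.44, adjusted p = 0.0448) each brought it past the threshold, and control centring turned it to 0.09.

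Malonyl-CoA decarboxylase, encoded by Mlycd, removes the malonyl-CoA that blocks carnitine palmitoyltransferase 1. It stood at 9.07, 8.91 and 9.03 in WT and at 9.23, 9.20 and 9.42 in KO, with the groups apart, but missed the threshold (0.28 ± 0.10, adjusted p = 0.0826).

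Of the ketone body enzymes 1 of 4 passed, as lower, beside 13% of genes above background. Bdh2, a cytosolic dehydrogenase of beta-hydroxybutyrate that has also been linked to the mammalian siderophore, fell from 8.07, 7.37 and 7.82 to 6.00, 6.16 and 5.59 (3.57-fold, -1.83 ± 0.20, adjusted p = 0.000705). This was the largest difference in either direction among the members, and it passed under each alternative that was run. Bdh1, the mitochondrial enzyme that makes beta-hydroxybutyrate from acetoacetate, stood at 11.84, 11.89 and 11.98 in WT and at 11.95, 11.72 and 11.61 in KO, with overlapping groups (-0.14 ± 0.11, interval -0.40 to 0.11). Acat1, the acetoacetyl-CoA thiolase shared by ketone and isoleucine metabolism, was at 12.35 on all 3 WT arrays and at 12.46, 12.31 and 12.20 in KO (-0.03 ± 0.10, interval -0.25 to 0.20). Oxct1, the transferase by which other tissues, but hardly hepatocytes, use acetoacetate, stood at 5.82, 5.75 and 5.60 in WT and at 5.84, 5.94 and 6.14 in KO, which missed the threshold (0.25 ± 0.11, adjusted p = 0.14). With the arrays centred on the controls, Bdh1 (0.30), Acat1 (0.41) and Oxct1 (0.69, adjusted p = 0.00237) passed as higher, and Bdh2 stayed lower (-1.39).

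**Figure D3:**
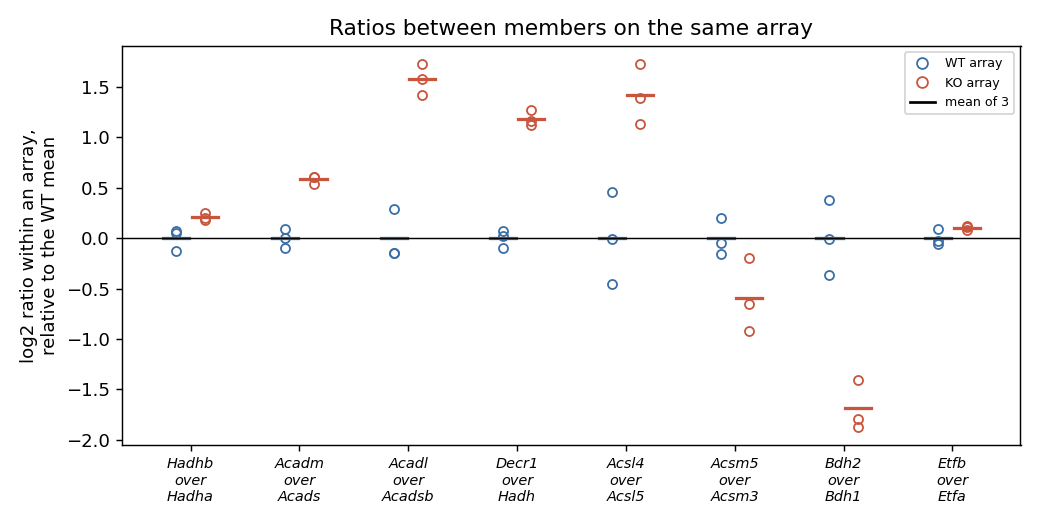
Log2 ratio between members of a pair on the same array, relative to the mean of the 3 WT arrays, with WT arrays in blue and KO arrays in red and lines at means of 3. A shift of a whole array cancels in these ratios. Acadl over Acadsb moves by 1.57, Decr1 over Hadh by 1.18 and Bdh2 over Bdh1 by -1.69, while Etfb over Etfa moves by 0.10 with overlapping groups.

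A shift of a whole array cancels in a ratio within it. Such ratios were computed for 8 pairs picked after the values were seen, so they describe and do not test. Acadm over Acads moved by 0.58, from a WT range of 1.89 to 2.07 to a KO range of 2.52 to 2.59. These are the medium-chain and short-chain dehydrogenases. Acsm5 over Acsm3 moved by -0.59, and its KO arrays ranged from -0.60 to 0.12 against 0.16 to 0.52 in WT.

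Genes of the neighbouring steps were taken from separate lists. Transcripts of the carnitine shuttle, which moves activated fatty acids into the matrix, rose in 4 of 4 measured genes, with a median of 0.69. Beside this, 14.2% of all genes were higher (median -0.055), and 21.8% of genes above background (median 0.035), as all 4 were. Cpt1a, the regulated outer-membrane enzyme, rose by 0.49 ± 0.11 (adjusted p = 0.0137), Cpt2 by 0.71 ± 0.09, the carrier Slc25a20 by 0.67 ± 0.09 and the carnitine acetyltransferase Crat by 1.90 ± 0.12 (3.74-fold, adjusted p = 4.64e-05). Among 4 measured genes of acetoacetate use and ketone export, 2 were higher, against 21.8% of genes above background. They were the monocarboxylate transporters Slc16a1 (0.79 ± 0.17, adjusted p = 0.0125) and Slc16a6 (1.33 ± 0.29, adjusted p = 0.0133). Aacs, which activates acetoacetate in the cytosol, differed by -0.83 ± 0.38, with a WT spread of 0.81 (SD, n = 3), and Slc16a7 by -0.26 ± 0.24. Cpt1b was not analysed here. Of the acetyl-CoA carboxylases that make malonyl-CoA, Acaca rose by 0.68 ± 0.15 (adjusted p = 0.0142) and Acacb differed by -0.33 ± 0.22.

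As deposited, regulators of the pathway were not higher in any of 5 cases, and 2 were lower. Of genes above background, 21.8% were higher and 13% lower. Ppargc1a, the coactivator PGC-1alpha named in the study's title, fell by 1.72 ± 0.16 (SE, adjusted p = 0.000274), and Rxra, the partner of PPARalpha on DNA, fell by 0.43 ± 0.09 (adjusted p = 0.0141). Ppara (-0.37 ± 0.12, adjusted p = 0.0522), Ppargc1b (-0.33 ± 0.14) and Esrra (-0.02 ± 0.11) did not pass. With the arrays centred on the controls, the differences of Rxra, Ppara, Ppargc1b and Esrra became 0.01, 0.07, 0.11 and 0.42. Esrra then passed as higher (adjusted p = 0.0187), the call of Rxra was lost (adjusted p = 0.915), and Ppargc1a stayed lower (-1.28).

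Peroxisomal beta-oxidation shortens very long chains before they reach mitochondria. Of its 5 measured transcripts 3 were higher, against 21.8% of genes above background: Ehhadh (2.56 ± 0.13), Acaa1b (0.67 ± 0.10) and Acaa1a (0.66 ± 0.14). Hsd17b4 (0.16 ± 0.09) and Scp2 (-0.21 ± 0.09) did not pass. Import of the enzymes into peroxisomes was not measured. A list of 14 transcripts of general mitochondrial proteins was higher in 2 genes and lower in 1 (14.3% and 7.14%). Over genes above background the shares were 21.8% and 13%. The median of the list was 0.12, beside a median of 0.13 over the fatty acid and ketone members. Citrate synthase, Cs, rose by 0.73 ± 0.11 and the succinate dehydrogenase subunit Sdha fell by 0.45 ± 0.09, and with the arrays centred on the controls Sdha stood at -0.01. The mean level of that list ran from 11.53 to 11.61 in WT and from 11.64 to 11.74 in KO, and its part in the rises of the members was not tested.

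**Figure D4:**
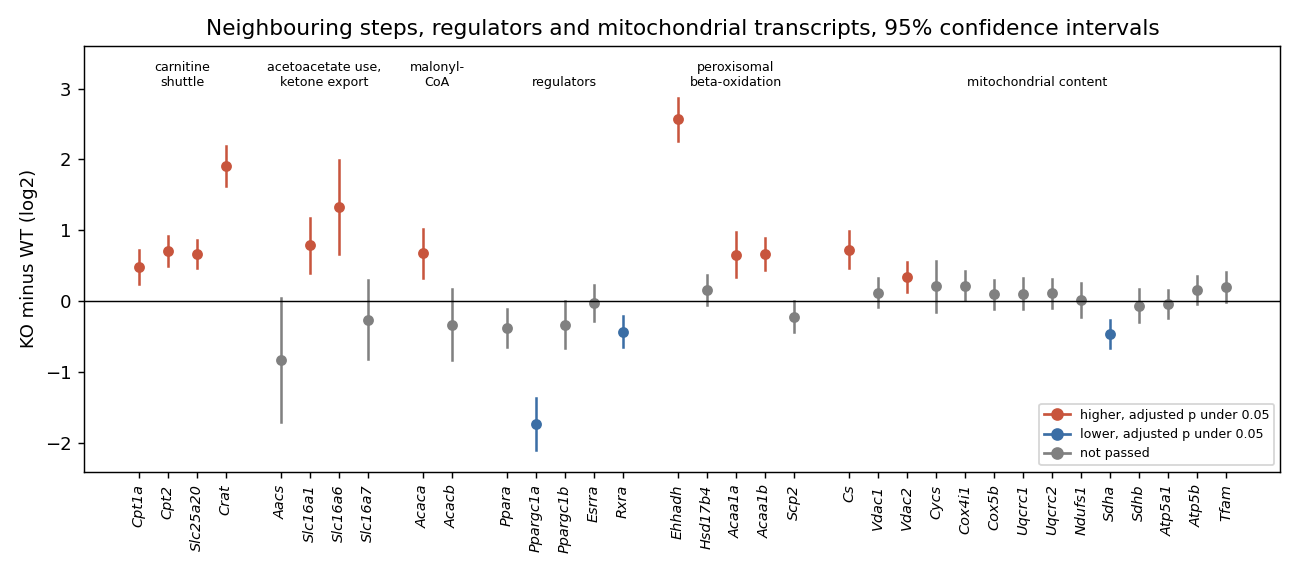
Difference between KO and WT means (log2) with 95% confidence intervals for genes of neighbouring steps, regulators and general mitochondrial proteins, coloured by whether they passed the test. All 4 measured carnitine shuttle genes lie above 0 with their intervals, and 11 of 14 mitochondrial transcripts did not pass.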

How the data were processed

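The authors deposited 1 log2 value for each probe set and array. The submitters' processing notes name RMA without a version, and the range (2.15 to 14.9) was taken to show the log2 scale. RMA usually includes quantile normalization, which removes a shift shared by most transcripts. Of 45101 probe sets, 64 are controls, 34945 have 1 symbol (platform annotation of the array), 932 several, and 9160 are unnamed here. Symbols were checked by gene identifier against GRCm38.p6, which changed 0.

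KO was compared with WT by limma 3.58.1, run under R 4.3.3 (lmFit and eBayes, group as factor, two-sided), with Benjamini-Hochberg adjustment over 18193 genes, a threshold of 0.05 and no filter. Background, 4.90, is the 95th percentile of the mean levels of 39 olfactory receptor genes. The fit was tested on simulated data. Alternatives were a replicate block, a filter on dim genes, 3 other scalings, 2 other choices of probe set, 2 variance models, a stricter threshold and leaving out each array. Named are all measured members, with every array's value for those that passed and for roles of 4 genes or fewer, and all genes of the pathway lists; of the lists of mitochondrial content and cell types, counts and a few genes. Alb and the markers under background check the tissue. The arrays of Acads, Acad10 and Hadh, the Hadha and Hadhb window, the AGGTCA contexts and the ratios were picked after the values were seen. Members and lists were chosen with earlier results of these data known. The number of arrays limits the precision.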

Additional observations from a re-analysis of the deposited data

How the results depend on the processing

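Over 15 alternative fits for each of 31 members, 420 of 465 differences kept their direction and their side of the threshold and 24 turned in sign. Calls were lost in 5 fits and gained in 21, of which 15 were with the arrays centred on the controls and 5 had also turned in sign. Leaving out each array in turn gave 8 to 11 higher and 4 to 5 lower members. Over all genes it lowered the counts more: without KO replicate 2 to 1497 higher and 888 lower, without KO replicate 1 to 1604 and 984, and without KO replicate 3 to 1956 and 1156. At the stricter threshold of 0.01, 8 members were higher and 4 lower. The replicate block gave 10 and 4, the same members as without it, and same-numbered arrays did not deviate together (correlations 0.105, -0.018 and 0.105). The difference of the added controls, leaving out each array (chosen after seeing the data), ran from -0.46 to -0.42. Centring on the controls gave 25 higher and 2 lower members and turned Acaa2 to 0.38, Acad11 to 0.33, Acad9 to 0.43, Acat1 to 0.41, Acsm3 to 0.088, Bdh1 to 0.30 and Hsd17b10 to 0.27. Centring on array medians turned Acad9 to 0.030 and Acat1 to 0.014, and array weights turned Acat1 to 0.0064. The mean of all probe sets turned Acad9 to 0.13, Acat1 to 0.078 and Etfdh to -0.027, and the probe set of largest variance turned Acad9 to 0.10, Acat1 to 0.17, Acad10 to -0.39 and Etfdh to -0.16. With 1 array left out, Acad9 ran from -0.068 to 0.028, Acat1 from -0.093 to 0.037, Echs1 from -0.014 to 0.070 and Hadh from -0.028 to 0.039. The cause of these turns was not tested. A comparison of protein ends that mark import into peroxisomes, and its alternative pattern, were not run. The smallest difference called among the members was that of Acadvl (0.37), while the larger one of Acad10 (0.41) was not called. A call thus depends on each gene's spread as well, and differences of this size or smaller could be missed with 3 arrays a group.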

Other observations

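The 31 members were represented by 55 probe sets, 49 of them above background on average, and 15 members had more than 1. No member had probe sets that passed in opposite directions (adjusted over 34945 probe sets). Acad9 had a dimmer probe set that passed as higher (0.29 ± 0.09, adjusted p = 0.0485) beside its brightest at -0.01. The probe sets of Acad10 differed in sign, at 0.41 and -0.39, and neither passed. The second probe set of Acadl lay under background at 3.09 and differed by 0.03. The 4 probe sets of Oxct1 differed by 0.03 to 0.25, all above 0, and none passed. Only 2 of them were above background, the others lying at 4.15 and 3.87.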
